A study of Mus musculus with 2 samples.

Results

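The neuromuscular synapse genes described here are 10 genes of the postsynaptic side of the nerve-muscle junction: Musk, Lrp4, Dok7, Rapsn, Chrna1, Chrnb1, Chrnd, Chrne, Chrng and Ache. The list was chosen with earlier results of these data known. Its probes were taken by name, as every probe on the array that carries 1 of these gene names, which gave 13 probes. Of the 10 genes, 9 were among the 13663 genes measured on both arrays. RNA came from the tibialis anterior, the muscle at the front of the shin, of adult males of the C57BL/6 background. The set held 2 arrays, 1 from a mouse with the activated Notch2 (N2ICD) transgene, labelled N2ICD-transgenic or N2ICD-mTG, and 1 from a control mouse. The labels name neither the promoter that drives the transgene nor what the control mouse carries. Per the series title and design text, the comparison asked how active Notch2 alters gene expression in muscle fibres.

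At the neuromuscular junction a motor axon releases acetylcholine onto a small patch of the fibre membrane that is packed with acetylcholine receptors. Agrin from the nerve binds the receptor Lrp4, which activates the receptor tyrosine kinase MuSK, and the adaptor Dok7 and the scaffold rapsyn then act to gather the receptors. The adult receptor is a pentamer of alpha, beta, delta and epsilon subunits, the fetal one carries gamma in place of epsilon, and acetylcholinesterase ends the signal. Electrical activity holds these genes down along most of the fibre, and loss of the nerve is known to raise several of them, Musk and the receptor subunits among them.

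The probes show what each value reads. Each is 60 bases long and is written 5′ to 3′ in the sense of the messenger RNA. The Musk, Lrp4 and Chrna1 probes are shown by their first 30 bases, because the largest positive differences rest on them.
Musk, position 3316: gtttagttcttccttgcacagaatatgtaa
Lrp4, position 7535: aaccattagtcttgttgtcattagctaggc
Chrna1, position 1486: agaggaaggtctgtctccttgaatcctttc
Chrna1, position 4209: gtcagttgatctaattctttagctttttct

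The Chrng probe is shown whole, because it reads the subunit that marks the fetal receptor, and so is the Ache probe at position 1597, because it reads the gene with the lowest difference.
Chrng, position 889: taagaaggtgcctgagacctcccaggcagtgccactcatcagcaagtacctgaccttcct
Ache, position 1597: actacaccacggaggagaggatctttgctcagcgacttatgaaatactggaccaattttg

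The Rapsn and Chrnd probes are shown by their last 30 bases, with AATAAA, the letters of the common polyadenylation signal, in capitals. These letters occur in 5602 of the 55681 probes of 60 bases on the array.
Rapsn, position 1559: ctttatagaaaAATAAAatgtttgtacctg
Chrnd, position 2904: ctgtcggggatAATAAAtacatttgggagc

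Of 59305 gene spots, 24982 stood well above background in N2ICD and 24916 in control, with 0 saturated. With 1 array per group there was no replicate check and no test, and genotype, animal, dissection and array cannot be told apart. All 10 markers of the skeletal muscle fibre were measured on both arrays. Of 2 Notch2 probes, 1 had 179 in N2ICD muscle against 189 in control muscle and the other 221 in N2ICD muscle against 6.01 in control muscle, where it was not well above background, at least 7.72-fold higher. Which of them reads the transgene was not tested. Hes1, a direct Notch target, had signals of 348 in N2ICD muscle against 55.4 in control muscle, a 5.59-fold higher value. Its log2 difference was 2.48, or 1.51 after normexp background correction and 3.0 on the spike-in scale. Of 6 genes in the Notch target list, Notch2 included, 5 were measured on both arrays, with a median of 0.69. Hes1 was the 1 past 2-fold upward, and 0 were past 2-fold downward. Hey1 stood at 0.54, Heyl at 0.69 and Nrarp at 0.94. Hes5 was well above background in control alone, at 31.2 against 19.4 in N2ICD muscle. Of the 13663 genes, 194 were at least 2-fold higher in N2ICD (1.42%) and 122 at least 2-fold lower (0.893%). The higher genes made up 61.4% of those past 2-fold, or 98.0% when spike-in controls set the scale.

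Among the 10 synapse genes Musk stood apart. It was the 1 gene of the 9 measured that was past 2-fold upward, beside 1.42% of all measured genes. Downward, 0 of the 9 were past 2-fold, beside 0.893%. Since the list was chosen with earlier results of these data known, setting its count beside these shares is no test. Values below are processed signals with the scanner software's own error, then log2 differences, N2ICD minus control, after each array was scaled to its 75th percentile. The spread between repeated spots of one probe is given as a measure of noise, and it holds no spread between animals. Its SD was 0.14 on the log2 scale across 251 probes with repeated spots, and ranged between 0.23 for the dimmest and 0.05 for the brightest of 4 level groups. Between probes of one gene the typical SD was larger, 0.25 over 3158 genes with several probes. The software's errors of both arrays combined to between 0.20 and 0.26 for the 12 measured probes. Multiples of spot noise given below are thus larger than multiples of the SD between probes would be.

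The agrin receptor complex and its adaptor come first. Musk, the kinase at the centre of postsynaptic assembly, reached 650.1 ± 65.3 in N2ICD muscle against 133.5 ± 14.6 in control muscle. This was a log2 difference of 2.11, or 4.32-fold higher, which is 17.1 times the SD of spot noise at that level. N2ICD was the higher, both spots were well above background, and the software's errors did not overlap. The value rests on 1 probe with 1 spot per array (mm9, chromosome 4, 58387070 to 58387129, plus strand). The array design assigns this probe to 4 listed transcript entries, with RefSeq and Ensembl entries counted separately. In the order of all 13663 genes from the highest difference down, Musk was in place 18, and 24 genes lay farther from 0 in either direction.

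Lrp4, the agrin receptor that activates MuSK, had signals of 237 ± 24.7 in N2ICD muscle against 146 ± 16 in control muscle. Its log2 difference of 0.53, or 1.44-fold, was 4.28 times the spot noise but under 2-fold, and 12.5% of all genes lay farther from 0. The Lrp4 probe lies on chromosome 2 (mm9, 91353566 to 91353625, plus strand). The log2 difference of Musk exceeded that of Lrp4 by 1.58.

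Dok7, the cytoplasmic adaptor that binds and activates MuSK from inside the fibre, was read by 2 probes of different transcript models. The probe at position 2416 (chromosome 5, 35430414 to 35430473) had signals of 462 ± 46.7 in N2ICD muscle against 471 ± 47.5 in control muscle, a log2 difference of -0.20. The probe at position 2660 of its own transcript model (chromosome 5, 35423495 to 35423554) had 3778 ± 378 in N2ICD muscle against 3292 ± 329 in control muscle, a difference of 0.03. They differed by 0.23 from each other, against a typical SD of 0.25 between probes of one gene, and their mean was -0.09. For either Dok7 probe the errors of the N2ICD and control signals overlapped.

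**Figure D1:**
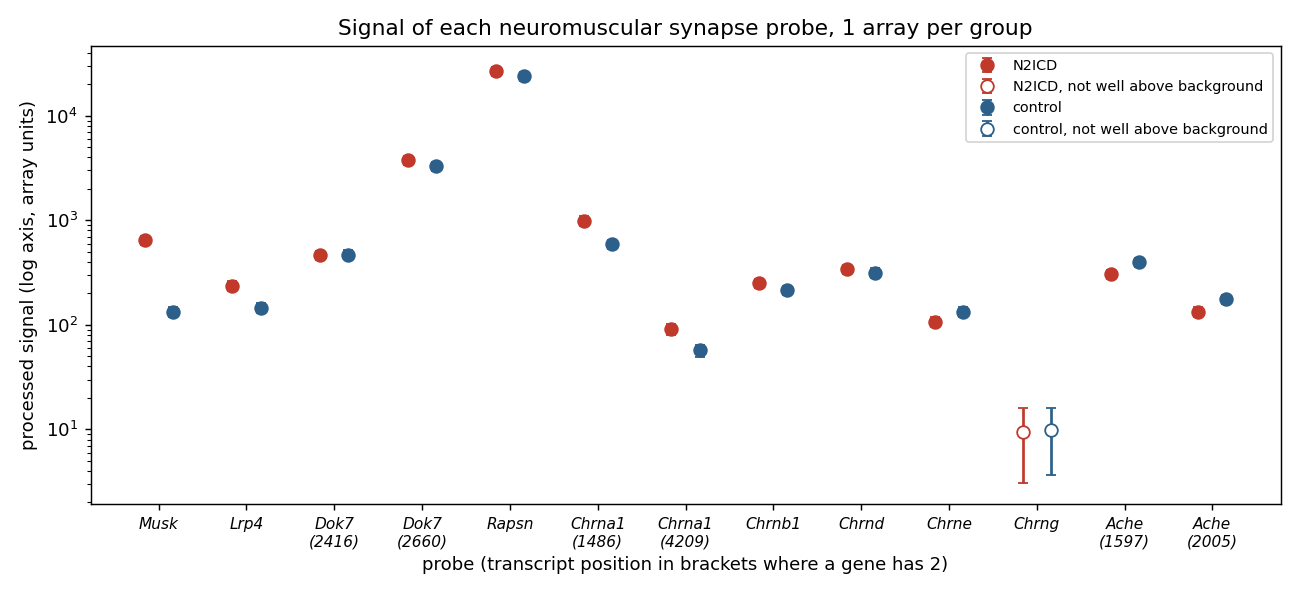
Processed signal of each of the 13 probes on the N2ICD array (red) and the control array (blue), on a log axis, with bars for the scanner software's error and hollow points where a spot was not well above background. The Musk pair is the widest, at 650.1 for N2ICD against 133.5 for control, and the Chrng pair is the one near background.

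Rapsn, which encodes the scaffold rapsyn that anchors receptors under the membrane, had 26775 ± 2678 in N2ICD muscle against 23970.5 ± 2397 in control muscle. After scaling the log2 difference was -0.01, which is within the spot noise of 0.05, and 96.2% of all genes lay farther from 0. The probe lies on chromosome 2 (mm9, 90885826 to 90885885, plus strand).

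The receptor subunits did not share 1 direction. Chrna1, the alpha subunit that carries the main acetylcholine-binding face, was read by 2 probes on chromosome 2. The probe at position 1486 (mm9, 73404112 to 73404171, minus strand) had 991 ± 99.3 in N2ICD muscle against 588 ± 59.1 in control muscle, a difference of 0.58. The probe at position 4209 (73401389 to 73401448) had 90.6 ± 10.6 in N2ICD muscle against 56.9 ± 7.78 in control muscle, a difference of 0.50. Both Chrna1 probes were brighter in N2ICD, differed by 0.08 from each other, and stood at 7.5 and 2.16 times the spot noise of their levels. Their mean of 0.54, or 1.45-fold, stayed under 2-fold.

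Chrnb1, the beta subunit through which rapsyn and the receptor are linked, had 249 ± 25.7 in N2ICD muscle against 214 ± 22.3 in control muscle, a difference of 0.05. Its probe crosses an intron, since it spans 569 bases of the genome (mm9, chromosome 11, 69598674 to 69599242, minus strand). Chrnd, the delta subunit, had 339.7 ± 34.5 in N2ICD muscle against 314 ± 32.0 in control muscle, a difference of -0.06 (chromosome 1, 89096585 to 89096644). Both subunits lay within 1 SD of spot noise, with overlapping errors.

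Chrne, the epsilon subunit of the adult receptor, had 107 ± 12.1 in N2ICD muscle against 133 ± 14.4 in control muscle. The log2 difference was -0.49, 1.40-fold lower in N2ICD and 2.10 times the spot noise, and the software's errors of the 2 unscaled signals overlapped narrowly (mm9, chromosome 11, 70429215 to 70429274, minus strand). Chrng, the gamma subunit of the fetal receptor, was well above background on neither array, with 9.48 ± 6.42 in N2ICD muscle against 9.92 ± 6.27 in control muscle (chromosome 1, 89106072 to 89106353, plus strand, across an intron). No fold is given for it. The difference of Chrna1 exceeded that of Chrne by 1.02 on the log2 scale, that of Chrnd by 0.60 and that of Chrnb1 by 0.49.

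Ache, the acetylcholinesterase of the synaptic cleft, had the lowest difference of the group. Its probe at position 1597 (mm9, chromosome 5, 137733122 to 137733181, plus strand) had 307 ± 31.3 in N2ICD muscle against 397 ± 40.2 in control muscle, a difference of -0.55. The probe at position 2005 (137735513 to 137735572) had 133.4 ± 14.4 in N2ICD muscle against 176 ± 18.4 in control muscle, a difference of -0.57. Both Ache probes were dimmer in N2ICD, within 0.03 of each other, at -4.42 and -2.49 times the spot noise. Their mean of -0.56 was 1.47-fold lower in N2ICD, short of 2-fold.

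**Figure D2:**
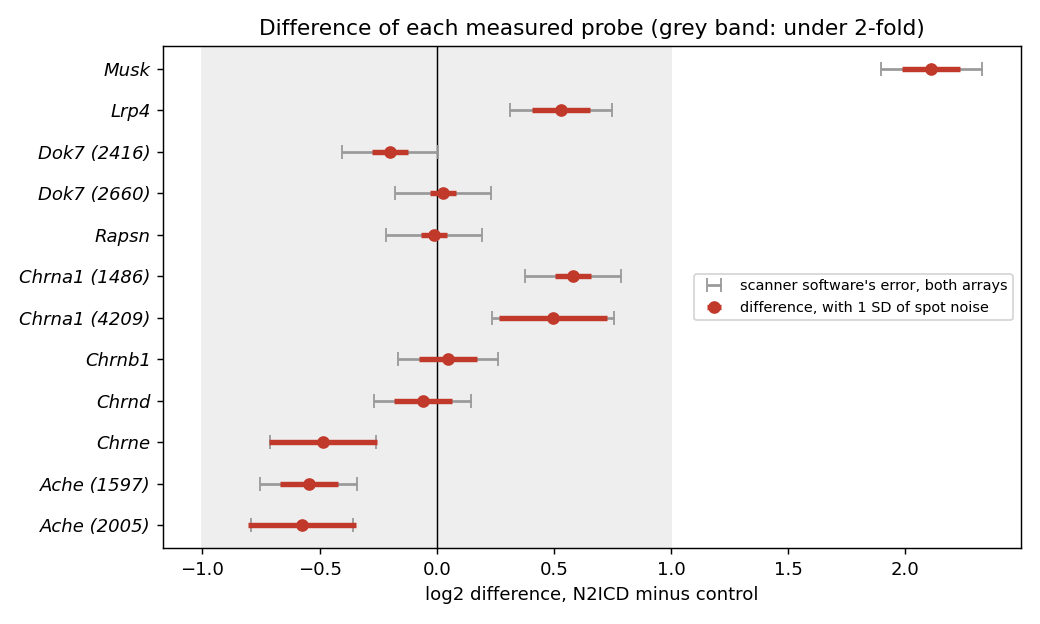
Log2 difference, N2ICD minus control, of each of the 12 probes well above background on both arrays, with thick bars for 1 SD of spot noise, thin bars for the scanner software's error over both arrays, and a grey band for differences under 2-fold. Musk at 2.11 lies outside the band, Lrp4 and both Chrna1 probes lie right of 0 within it, and Chrne and both Ache probes lie left of 0.

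The median of the group lay close to that of all genes. The group's median log2 difference was -0.01 over 9 measured genes, beside 0.01 over all 13663, with 4 genes above 0 and 5 below. Without Musk the median was -0.04 over 8 genes. Of the 9 genes, 4 lay within 0.1 of 0 (Dok7, Rapsn, Chrnb1 and Chrnd), as did 28.9% of all genes. A further 4 lay between 0.4 and 1 from 0 (Lrp4, Chrna1, Chrne and Ache), where 18.8% of all genes stood. The middle 90% of all genes ran from -0.58 to 0.59, and the 8 genes other than Musk were inside that range.

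**Figure D3:**
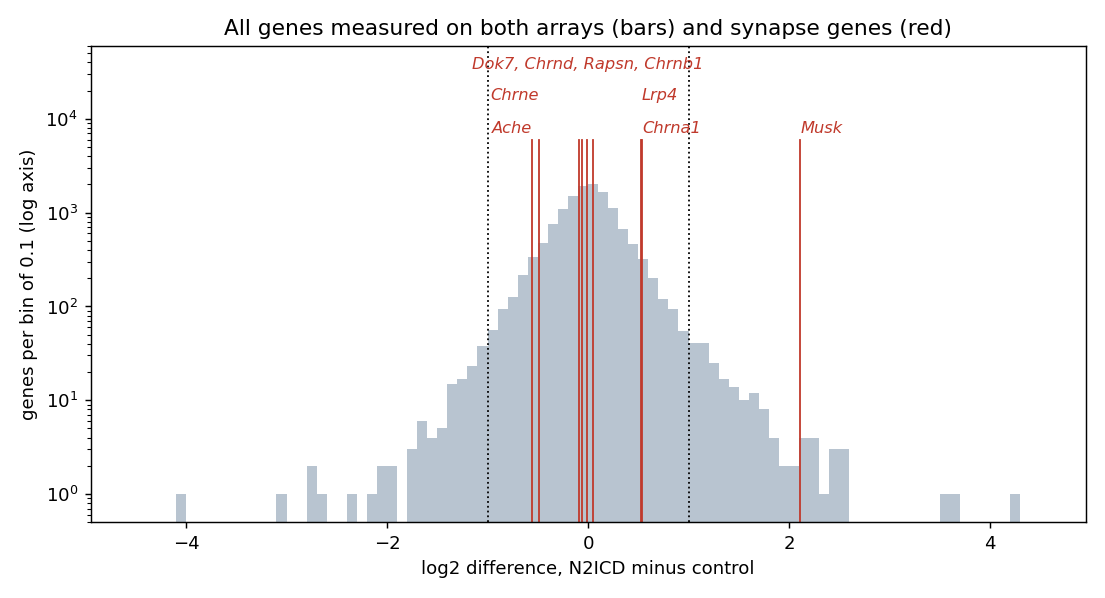
Number of genes per bin of 0.1 in log2 difference, N2ICD minus control, on a log axis, over 13663 genes, with red lines at the 9 measured synapse genes and dotted lines at 2-fold. Musk stands in the right tail, in place 18 from the top, and the others stand among the bulk of genes.

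The values of the group, and the number of its genes past 2-fold, depended on the scale. With spike-in controls as the scale all genes moved up by 0.52. Lrp4 at 1.05 and Chrna1 at 1.06 then also passed 2-fold, Chrne stood at 0.04 and Ache at -0.04. On that scale 1059 of the 13663 genes were at least 2-fold higher. The group median minus the median of all genes was -0.02 on the main and on the spike-in scale. Musk was at least 2-fold higher under each of 9 other settings, from 1.63 after normexp background correction to 2.63 on the spike-in scale. Not all of these settings could change it. Musk has 1 probe, well above background on both arrays, so the filter settings and the brightest-probe setting return the main value. The authors' deposited values start from the same intensities. In the authors' deposited table the Musk probe was 4.37-fold up, the Lrp4 probe 1.46-fold up and the Chrne probe 1.39-fold down.

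**Figure D4:**
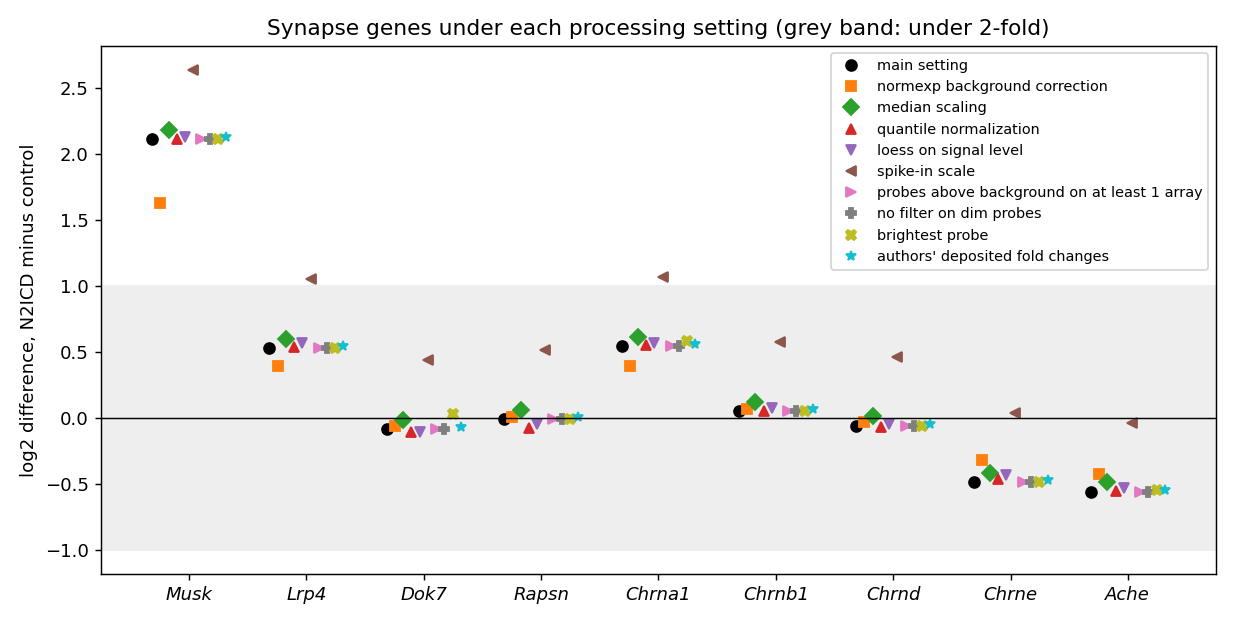
Log2 difference, N2ICD minus control, of the 9 measured synapse genes under the main setting (black) and 9 other processing settings, with a grey band for differences under 2-fold. Musk stays above the band under each setting, from 1.63 to 2.63, and the spike-in scale lifts every gene by the same 0.52.

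Promoter windows are shown for Musk, Chrna1, Chrne and Ache, which among the matched genes lay farthest from 0. Windows of 250 bases before the annotated start were taken from RefSeq (GRCm38.p6), where 7 of the 10 genes matched, all but Lrp4, Rapsn and Chrnd. They were searched on both strands for 3 sets of letters: the E-box CANNTG, bound by myogenic factors such as myogenin, the N-box CCGGAA, bound by Ets factors and known from synapse-specific promoters, and the core TGGGAA of the site of RBPJ, the DNA-binding partner of active Notch. Among all 32851 promoter windows, 66.2% held an E-box, 12% an N-box and 21.6% the RBPJ core. Matches are in capitals in the windows below, and none of those shown overlaps another. A match says only that the letters are there, and binding was not measured.
Musk, chr4:58285712-58285961, plus strand: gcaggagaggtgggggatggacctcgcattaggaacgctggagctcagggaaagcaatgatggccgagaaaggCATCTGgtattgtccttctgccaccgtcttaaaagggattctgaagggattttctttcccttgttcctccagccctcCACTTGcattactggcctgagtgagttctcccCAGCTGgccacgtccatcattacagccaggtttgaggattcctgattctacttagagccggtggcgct
Chrna1, chr2:73580339-73580588, minus strand: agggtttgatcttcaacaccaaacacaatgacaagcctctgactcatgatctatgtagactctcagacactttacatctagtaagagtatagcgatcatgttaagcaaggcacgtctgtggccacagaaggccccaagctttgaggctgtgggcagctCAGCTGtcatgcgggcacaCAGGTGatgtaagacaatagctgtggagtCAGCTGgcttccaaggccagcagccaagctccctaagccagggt
Chrne, chr11:70619195-70619444, minus strand: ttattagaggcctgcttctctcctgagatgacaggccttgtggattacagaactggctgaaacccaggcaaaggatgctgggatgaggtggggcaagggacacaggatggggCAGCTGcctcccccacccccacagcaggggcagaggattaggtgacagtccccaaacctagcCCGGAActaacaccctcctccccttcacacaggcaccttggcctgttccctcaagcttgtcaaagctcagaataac
Ache, chr5:137288004-137288253, plus strand: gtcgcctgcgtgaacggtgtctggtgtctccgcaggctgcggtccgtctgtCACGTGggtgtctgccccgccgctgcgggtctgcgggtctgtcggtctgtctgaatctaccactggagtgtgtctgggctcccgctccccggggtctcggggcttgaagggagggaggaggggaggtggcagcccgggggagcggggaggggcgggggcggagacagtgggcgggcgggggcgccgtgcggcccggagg

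The Musk window held 3 E-boxes, which begin 177, 100 and 68 bases before the start, and so did the Chrna1 window, at 92, 73 and 44 bases. The Chrne window held 1 E-box at 138 bases and the N-box at 76 bases, and the Ache window 1 E-box at 199 bases. The 7 matched genes had 8 windows, since Dok7 had 2. Each of the 7 genes had an E-box in at least 1 window, 1 had an N-box and 2, Dok7 and Chrng, had the RBPJ core. The other Dok7 window held none of the 3 sets of letters. These counts are per gene, while the shares over all promoters are per window. The RBPJ core was in neither the Musk nor the Chrna1 window.

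Genes that work beside these 10 were read from lists of partners. For each list below, the count past 2-fold stands beside 1.42% of all measured genes upward and 0.893% downward. Among 19 signalling partners of agrin and MuSK, 17 were measured on both arrays, of which 0 were past 2-fold upward and 1 downward. The list median was -0.10, beside 0.01 over all genes. The gene past 2-fold downward was Pak1, a p21-activated kinase that acts on the actin skeleton downstream of MuSK, with signals of 70.4 in N2ICD muscle against 235 in control muscle, 3.76-fold lower. Its log2 difference was -1.91, or -1.29 after normexp background correction and -1.39 on the spike-in scale. Agrn, which encodes agrin itself and which muscle also makes, had 556 in N2ICD muscle against 480.1 in control muscle, a difference of 0.04.

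The synaptic matrix and scaffold list held 20 genes, of which 18 were measured, 1 was at least 2-fold higher and 0 were 2-fold lower, with a median of -0.06. Syne1, a nuclear envelope protein that takes part in anchoring nuclei under the synapse, was the higher one, with signals of 182 in N2ICD muscle against 73.4 in control muscle. Its log2 difference was 1.13, and it was 0.63 after normexp background correction. Another Syne1 probe was well above background on neither array. Colq, the collagen tail that anchors acetylcholinesterase, had 885 in N2ICD muscle against 900.2 in control muscle, a difference of -0.20. Utrn, the dystrophin relative utrophin of the junction, had a difference of -0.17.

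In the neuregulin and transcription list, 7 of 10 genes were measured, with 1 past 2-fold upward, 0 downward and a median of -0.05. Egr1, an immediate early transcription factor, was 4.5-fold higher, with signals of 706 in N2ICD muscle against 139 in control muscle. Nrg1, Erbb3 and Erbb4 were not well above background on either array. Genes for glycosylation enzymes that cause congenital myasthenia in humans when mutated (5 of 5 measured) ran from -0.17 to 0.18, and 0 passed 2-fold in either direction.

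Genes known to respond to loss of the nerve were of mixed direction. Of 14, 11 were measured, 7 above 0 and 4 below, with a median of 0.28, and 1 was past 2-fold upward and 0 downward. Kcnn3, a calcium-activated potassium channel that appears in denervated muscle, had signals of 83.6 in N2ICD muscle against 35.6 in control muscle, a difference of 1.06, or 0.40 after normexp background correction. The other Kcnn3 probe was well above background on neither array. Myog, the myogenic factor that drives synaptic genes after denervation, had 124 in N2ICD muscle against 81.3 in control muscle, a difference of 0.43. That difference was 0.23 after normexp background correction and 0.95 on the spike-in scale. Runx1, a transcription factor raised by denervation, had a difference of 0.65, with its other probe not well above background on either array. The fetal subunit gene Chrng, also known to return after denervation, stayed near background in both muscles.

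**Figure D5:**
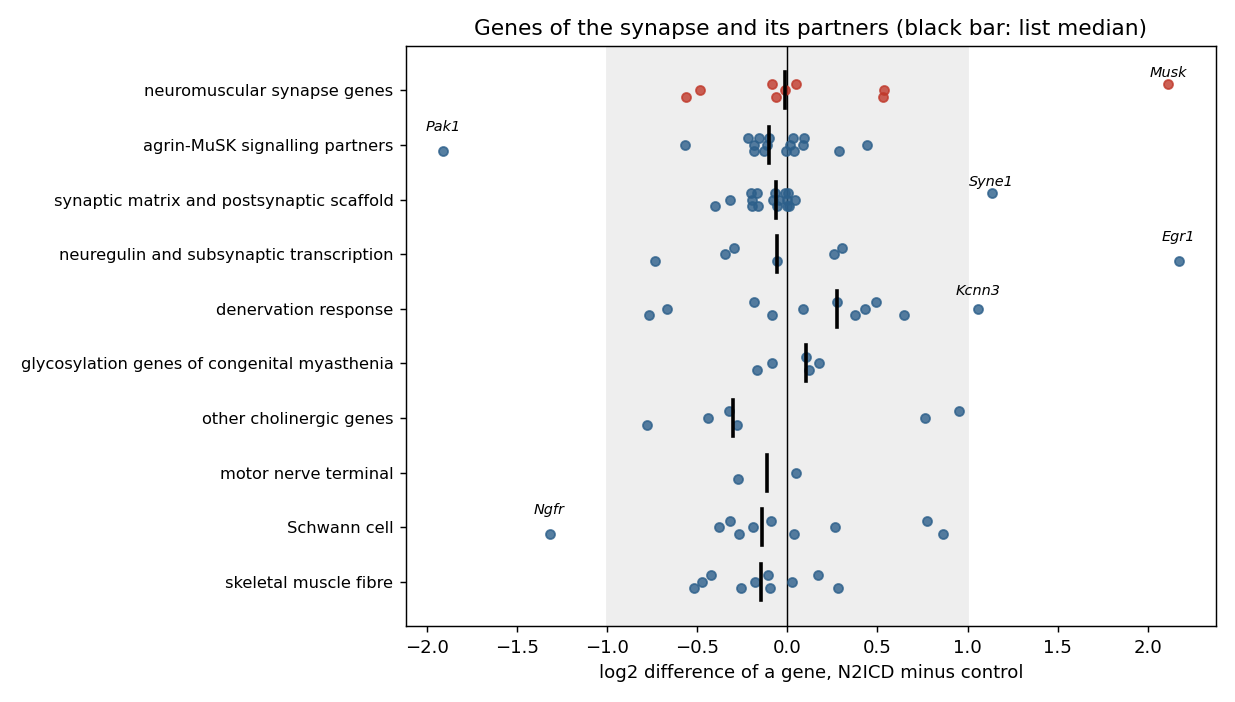
Log2 difference, N2ICD minus control, of each gene measured on both arrays in the synapse genes and 9 other lists (synaptic partners, nerve, Schwann cell and muscle fibre), with a black bar at each list median and a grey band for differences under 2-fold. Of the genes plotted, Musk, Pak1, Syne1, Egr1, Kcnn3 and Ngfr lie outside the band.

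Markers of the nerve and its sheath were read beside these values, since a synapse in whole muscle holds both. Of 10 motor nerve terminal genes, 6 were not well above background on either array, Chat and Slc5a7 among them, and 2 were well above background in N2ICD alone. Of these, Prph, an intermediate filament of peripheral neurons, had 57.0 in N2ICD muscle against 22.9 in control muscle, at least 1.99-fold higher, and Slc18a3, the vesicular acetylcholine transporter, 35.7 in N2ICD muscle against 29.3 in control muscle, at least 1.08-fold higher. The summed signals of the list, not scaled between arrays, were 10412 in N2ICD muscle against 9171 in control muscle. Snap25 alone gave 9150 in N2ICD muscle and 7864 in control muscle. The 75th percentiles used for scaling were 190.4 for N2ICD and 169 for control. Such sums also hold probes not well above background. Snap25 and Syp, the 2 measured on both, had differences of 0.05 and -0.27. The summed signals of 13 Schwann cell genes, again not scaled between arrays, were 3875 in N2ICD muscle against 3593 in control muscle. Of these genes 10 were measured, with a median scaled difference of -0.14, 4 above 0 and 6 below. Among the 10, 0 were past 2-fold upward and 1 was past 2-fold downward. Ngfr, a neurotrophin receptor, was that gene, with signals of 38.6 in N2ICD muscle against 84.6 in control muscle, 2.49-fold lower, and -0.61 on the log2 scale after normexp background correction. Other members stood on the other side of 0, with a log2 difference of 0.86 for Ncmap, a myelin-associated protein, and 0.78 for S100b, a calcium-binding protein of Schwann cells. Mag, a myelin glycoprotein, was well above background in N2ICD alone, at least 1.56-fold higher. Median differences were -0.23 over 7 fibroblast genes, -0.34 over 6 endothelial genes and -0.42 over 5 measured leukocyte genes, and 0 genes of these lists passed 2-fold. The 10 muscle fibre markers had a median of -0.14, and 0 passed 2-fold. The part of nerve, Schwann or other cell RNA in the values of the 10 genes was not tested. In whole muscle, more or fewer synapses and more or less RNA per synapse cannot be told apart.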

How the data were processed

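Total RNA of 1 N2ICD and 1 control muscle was labelled with Cy3 and hybridised to 1 array each. The deposited scanner files give the intensity of each spot, read with Agilent Feature Extraction 10.10.1.1 according to their headers. The processed intensity has background and spatial trend removed within an array, per the file headers, and is not scaled between arrays. Coordinates are those of mm9, as the headers state. A table from the authors gives for each probe a fold (ratio) without sign, an intensity and a normalized log2 value per array. The sources used here do not give its normalization. It lists 12 of the 13 probes of the synapse genes.

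From the scanner files, log2 processed intensity was reduced by the 75th percentile of the array (signals of 190.4 for N2ICD and 169 for control). Control spots and 215 outlier spots were left out and repeated spots averaged. Each gene took the mean of those of its probes that stood well above background in both samples. A probe counted as such when most of its spots did. Gene names came from the files. For 31161 spots the accession matched RefSeq (GRCm38.p6) and its symbol was used, which renamed 1900 spots. The synapse genes were taken by the files' own name.

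With 1 array per group, a difference of 2-fold stood in for a test. The members and the 14 other lists were chosen with earlier results of these data known. Named from each list were genes past 2-fold or, where none was, the highest and lowest, plus 7 genes whatever their value. Not all of these are printed. Prima1, Erbb4, Pax7, Sdc4, Cdh15, Vcam1, Myf5, Calcr, Chat, Slc5a7, Prph, Slc18a3, Ncmap, S100b and Mag fall outside that rule and were named after their values were seen. The same holds for Hey1, Heyl, Nrarp and Hes5. The steps were tested on simulated data. Alternatives were normexp background correction (offset 50), median, quantile, loess and spike-in scaling (7 E1A probes), other filters on dim probes, the brightest probe, the fold changes of the authors' deposited table and other thresholds. The software used was Python 3.11.15, numpy 2.4.6, pandas 2.3.3, matplotlib 3.10.9, R 4.3.3 and limma 3.58.1.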

Additional observations from a re-analysis of the deposited data

How the results depend on the processing

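Of 135 values recomputed under another setting, 103 moved by less than the spot noise or, for counts, by less than 1.5 times. Some of these could not move. The filter settings left the difference of each measured synapse gene as it was, and the brightest-probe setting cannot alter a gene with 1 probe. The deposited table holds the same intensities. Counts of settings below include these. The Musk difference was 1.63 after normexp background correction and 2.63 on the spike-in scale. On that scale 3 synapse genes were at least 2-fold higher, beside 1059 of all 13663 genes. The median of the 9 measured genes was then 0.51, beside 0.53 over all genes. On the main scale the mean of the group was 0.22, in place of a median of -0.01. Lrp4 and Chrna1 were above 0 and Ache below 0 under all 9 alternatives, while Chrne stood below 0 under 8 of 9, Dok7 and Chrnd under 7, Rapsn under 5, and Chrnb1 was above 0 under all 9.

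The counts over all genes, which are the background here, were less stable: 81 higher and 43 lower after normexp, 1059 and 22 on the spike-in scale, 364 and 328 with probes above background on at least 1 array, 835 and 968 with no filter, 694 and 661 at 1.5-fold, and 20 and 9 at 4-fold. By construction, the thresholds and filters change what is counted, and the spike-in scale adds the same 0.52 to every gene. What lowered the counts after normexp was not tested.

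No paired analysis was possible because each group has 1 array. The number of arrays limits the precision, and spot noise is no measure of the spread between animals. Musk, Lrp4, Rapsn, Chrnb1, Chrnd and Chrne each rest on 1 spot per array.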

Other observations

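Other genes of acetylcholine signalling were read outside the 10. Of 13 such genes, 6 were measured on both arrays, 2 above 0 and 4 below, and 0 passed 2-fold in either direction. Bche, which encodes butyrylcholinesterase, the other enzyme that splits acetylcholine, had signals of 144 in N2ICD muscle against 66.0 in control muscle, a log2 difference of 0.95, or 0.52 after normexp background correction. Prima1, the membrane anchor of cholinesterases, had 505 in N2ICD muscle against 264 in control muscle, a difference of 0.76. Both stood above 0 while Ache stood below it under the main setting, with Ache at -0.56. Chrna2, a nicotinic subunit best known from neurons, had 739 in N2ICD muscle against 1125 in control muscle, a difference of -0.78. A further 6 of the 13, all of them nicotinic subunit genes, were not well above background on either array.

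Among satellite cell markers, 5 of 7 were measured, with 1 past 2-fold upward, 0 downward and a median of 0.73. Itga7, a laminin receptor that fibres also make and that lies at the junction between fibre and matrix, was 2.81-fold higher, with signals of 26853 in N2ICD muscle against 8493 in control muscle. Sdc4, a syndecan, had a log2 difference of 0.86, Cdh15, which encodes M-cadherin, 0.73, Pax7, which defines satellite cells, 0.14 and Vcam1, an adhesion molecule, -0.31, while Myf5 and Calcr were not well above background on either array.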
